A study of Mus musculus with 20 samples.

Results

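Solute carriers of 12 families that move sugars, amino acids, peptides and short organic acids across membranes (Slc1, Slc2, Slc3, Slc5, Slc6, Slc7, Slc15, Slc16, Slc36, Slc37, Slc38 and Slc43) were followed in the middle colon of mice with and without colitis. A gene was taken as a member if its symbol had one of these family stems followed by a and a number, and if its probe set carried that symbol alone. This gave 109 probe sets of 102 genes, out of 22360 named probe sets of 21423 genes. Of the 102 genes, 93 were bright enough to be tested, with a log2 value above 5.30 (their 25th percentile) on 4 or more of the 20 arrays, and 9 were not (Slc5a12, Slc6a15, Slc6a16, Slc7a3, Slc7a12, Slc7a13, Slc15a5, Slc16a14 and Slc36a3).

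RNA was taken from female C57BL/6JOlaHsd mice about 11 weeks old, with 1 Affymetrix array for each mouse and 4 mice in each of 5 groups. Colitis was produced with 3% dextran sulphate sodium (DSS), which damages the lining of the colon, in the drinking water for 5 days. The cyclosporine colitis mice (numbers 4, 7, 9 and 10) drank DSS and were dosed by mouth with cyclosporine, a calcineurin inhibitor that limits T cell activation, at 25 mg/kg on each day between day 1 and day 15. The probiotic colitis mice (3, 5, 7 and 8) drank DSS and were gavaged with the bacterial strains L930BB and IM386, starting ahead of DSS. The untreated colitis mice (5, 6, 7 and 10) drank DSS and had saline, with neither cyclosporine nor the strains. The probiotic healthy mice (4, 5, 6 and 7) had the 2 strains without DSS, and the untreated healthy mice (2, 4, 6 and 7) had saline without DSS or the strains. Untreated in these group names thus means saline. No healthy group on cyclosporine and no group on its carrier solution alone were analysed here. Whole tissue was arrayed, so for every change below fewer cells of a type and less RNA per cell cannot be told apart.

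The colon takes up short-chain fatty acids made by bacteria, chiefly butyrate, through monocarboxylate carriers of the apical and basolateral membranes, and burns them in its mitochondria. Amino acid carriers work as sodium- or proton-driven importers or as exchangers, and the exchangers of the Slc7 family need a heavy chain of the Slc3 family to reach the membrane. Many of these genes are known targets of ATF4, the transcription factor of amino acid shortage, of the hypoxia factor HIF, or of NRF2, which binds antioxidant elements.

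Promoter sequence was printed for 3 carriers whose levels carry much of what follows: the cystine importer Slc7a11, the lactate exporter Slc16a3 and the monocarboxylate importer Slc16a1. RefSeq windows (GRCm38.p6) of the 250 bases before each gene start were searched on both strands for TGATGNAA (the ATF4 element), TGACNNNGC (the core of the antioxidant element) and ACGTG (the core of the hypoxia element). Capitals mark the matches. The Slc7a11 window lies at chr3:50443614-50443863 on the minus strand, the Slc16a3 window at chr11:120948817-120949066 on the plus strand and the Slc16a1 window at chr3:104638414-104638663 on the plus strand.
Slc7a11: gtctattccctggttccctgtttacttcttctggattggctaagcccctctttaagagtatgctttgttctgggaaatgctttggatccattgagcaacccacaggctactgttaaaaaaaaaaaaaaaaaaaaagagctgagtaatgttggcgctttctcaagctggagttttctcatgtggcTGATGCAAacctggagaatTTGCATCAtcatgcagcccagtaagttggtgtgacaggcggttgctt
Slc16a3: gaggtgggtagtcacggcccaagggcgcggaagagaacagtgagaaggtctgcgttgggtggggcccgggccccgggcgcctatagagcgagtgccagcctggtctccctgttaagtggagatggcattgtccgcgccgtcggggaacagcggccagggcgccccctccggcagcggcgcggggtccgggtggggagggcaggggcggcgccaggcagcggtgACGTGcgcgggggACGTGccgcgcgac
Slc16a1: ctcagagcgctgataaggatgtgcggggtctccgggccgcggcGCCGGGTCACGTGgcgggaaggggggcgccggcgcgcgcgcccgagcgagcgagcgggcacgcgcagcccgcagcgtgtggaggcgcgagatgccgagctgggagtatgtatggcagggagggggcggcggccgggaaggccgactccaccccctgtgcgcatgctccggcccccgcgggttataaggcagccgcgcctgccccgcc

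In Slc7a11 the ATF4 element was found on the plus strand of the window, its first base 66 bases before the start, and on the minus strand, 47 bases before it. In Slc16a3 the hypoxia core stood at 27 and 14 bases before the start. In Slc16a1 the antioxidant core lay on the minus strand at 207 bases and overlapped the hypoxia core, which reads the same on both strands there, at 200 and 199 bases. A promoter window was found for 75 of the 102 carriers (98 windows). The ATF4 element was in 4.08% of these windows, against 3.45% of 32851 windows of all genes, and besides Slc7a11 the carriers with it were Slc6a21 and Slc7a7. The antioxidant core was in 9.18% of the carrier windows and 10.2% of all windows, and the hypoxia core in 24.5% and 16.6%. Matches are letters in a window and do not show binding.

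The 20 arrays had medians between 6.57 and 6.63 on the log2 scale and pairwise correlations between 0.963 and 0.995, over probe sets with 1 symbol. Of the variance, 55.9% lay on the first principal component. Mouse 2 of untreated healthy, mouse 6 of untreated colitis and mouse 8 of probiotic colitis lay away from their groups along the components. Arrays carry no read depth, and their number limits the precision. Colonocyte markers were present, with 17 of 18 listed genes tested and a mean log2 level of 11.96 to 12.07 in untreated healthy mice. The listed genes of the small intestinal enterocyte had mean log2 levels of 6.83 to 6.91 in the same mice.

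In untreated colitis against untreated healthy colon, more carriers fell than rose. The falls included importers of glucose, butyrate, dipeptides, glutamate and serotonin, and the rises included the cystine exchangers, endolysosomal peptide carriers and the lactate exporter. Of the 93 tested carriers 28 fell and 13 rose at an adjusted p under 0.05 (limma, Benjamini-Hochberg over 16739 genes), that is 30.1% and 14.0% of them, while 14.4% of all tested genes fell and 11.7% rose. The median change was -0.07 over the carriers and -0.03 over all genes. Changes of at least 2-fold were made by 6 carriers that fell (Slc37a2, Slc6a4, Slc15a1, Slc16a12, Slc36a1 and Slc7a8) and by 3 that rose (Slc7a11, Slc15a3 and Slc7a9). The 4 arrays of the 2 groups did not overlap for 26 carriers that were lower and 11 that were higher, against 14.0% and 10.6% of all genes. Without the 3 arrays that stood apart, 28 fell and 16 rose, and over all genes 4476 were called in place of 4361.

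**Figure D1:**
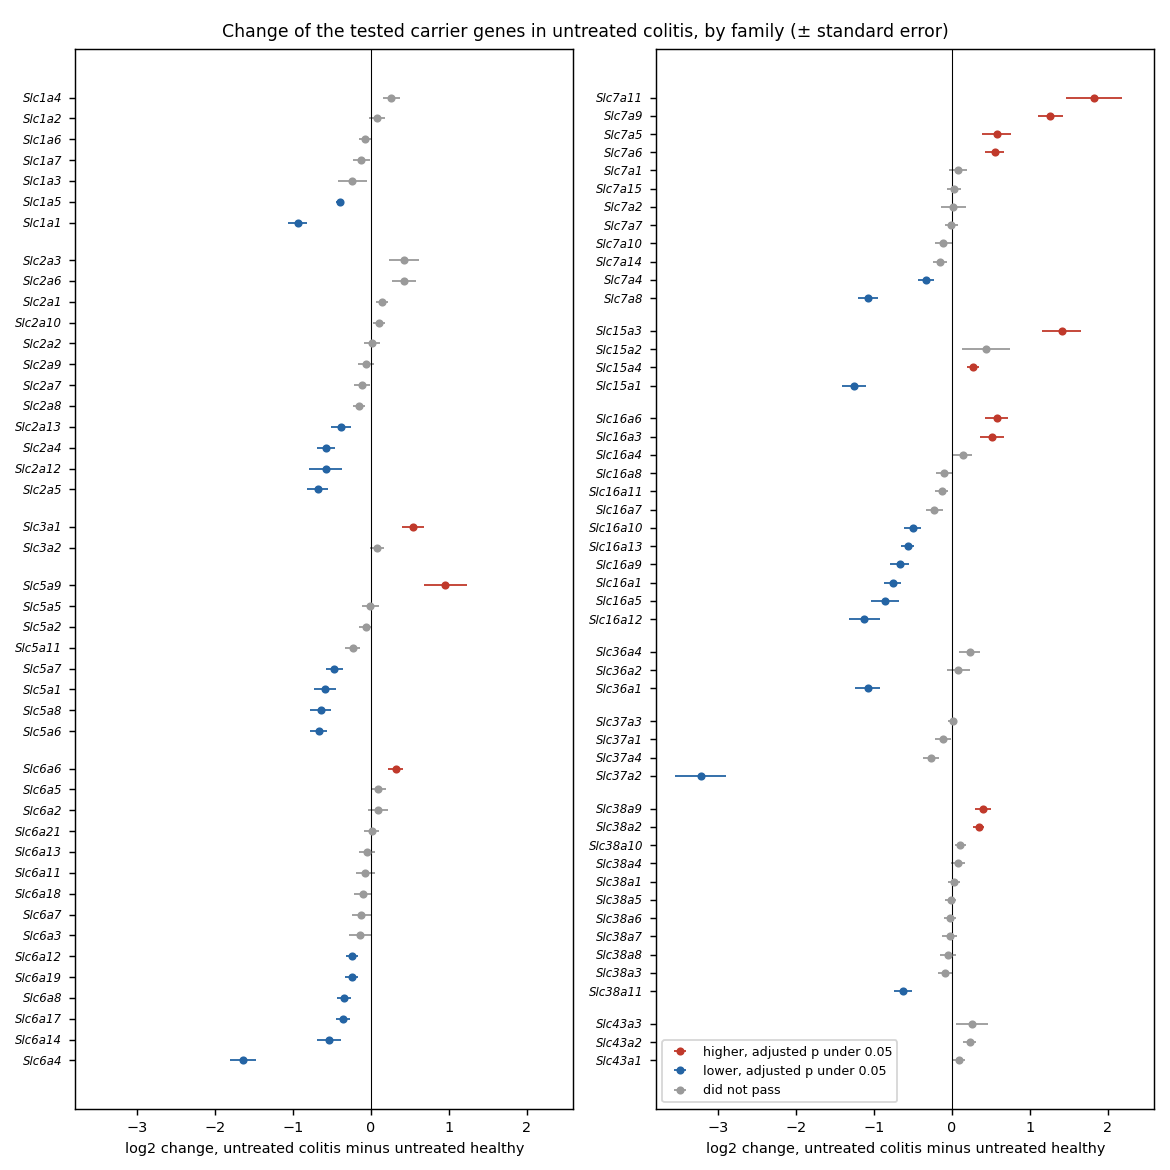
Log2 change in untreated colitis minus untreated healthy colon for the 93 tested carriers, ordered by family down the page, with bars of ± 1 standard error and 4 mice in each group. Red points rose and blue points fell at an adjusted p under 0.05, and grey points did not pass. The leftmost point is Slc37a2 at -3.22 and the rightmost is Slc7a11 at 1.82.

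Among the carriers of sugars and sugar phosphates, Slc37a2 had the largest change of all 93 carriers. It encodes an endoplasmic reticulum antiporter that exchanges glucose-6-phosphate for phosphate. Its log2 level was 8.55, 8.45, 7.42 and 8.37 in untreated colitis and 10.81, 11.55, 11.58 and 11.74 in untreated healthy mice. The ranges were more than 2 log2 units apart, with untreated colitis mouse 7 the lowest array, and the change was -3.22 ± 0.33 (standard error), a 9.34-fold fall (adjusted p = 2.83e-06). The other 3 tested Slc37 genes did not pass, including the glucose-6-phosphate transporter of glucose release, Slc37a4 (-0.27 ± 0.10, adjusted p = 0.0565).

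Slc5a1, the sodium-driven glucose and galactose importer SGLT1, read 8.32, 9.14, 8.81 and 8.99 in untreated colitis and 9.37, 9.36, 9.55 and 9.34 in untreated healthy colon. All 4 colitis arrays were below all 4 healthy arrays, and the gene fell (-0.59 ± 0.14, adjusted p = 0.0039). The fructose carrier Slc2a5 fell (-0.69 ± 0.13, adjusted p = 0.00095), as did the insulin-responsive glucose carrier Slc2a4 (-0.58 ± 0.11, adjusted p = 0.000844), Slc2a12 (-0.58) and the proton-driven myo-inositol carrier Slc2a13 (-0.39). Slc2a12 averaged 5.20 ± 0.57 in untreated colitis (SD, n = 4), under the level of the filter. Background may compress its change there, which was not tested. Its groups overlapped, and untreated colitis mouse 7, at 4.40, was its lowest array. The glucose carriers GLUT1, GLUT2 and GLUT3 were not among the falls. Slc2a1 (GLUT1) changed by 0.14 ± 0.08, adjusted p = 0.208, Slc2a2 (GLUT2) by 0.01 ± 0.10, adjusted p = 0.938 and Slc2a3 (GLUT3, abundant in leukocytes and neurons) by 0.43 ± 0.19, adjusted p = 0.107, and none passed. Slc2a2 averaged 5.72 over the 20 arrays, little above the filter level, so background may hide a change in it, which was not tested. The single Slc5 gene that rose was Slc5a9, a sodium-driven carrier of mannose and glucose (0.95 ± 0.28, adjusted p = 0.0151). Its groups overlapped, at 7.77, 8.06, 8.61 and 8.46 in untreated colitis and 7.80, 7.35, 6.82 and 7.11 in untreated healthy mice. Leaving out mouse 6 of the healthy or mouse 7 of the colitis group ended the call (adjusted p of 0.0528 to 0.0555). In all, 4 of 12 Slc2 genes fell and none rose, and 4 of 8 Slc5 genes fell and 1 rose. Of all tested genes 14.4% fell and 11.7% rose, so the single Slc5 rise (12.5%) was near the share of all genes.

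The monocarboxylate carriers were the family with most calls, 6 of 12 Slc16 genes lower and 2 higher, against 14.4% and 11.7% of all genes. Slc16a1 (MCT1) carries butyrate, lactate and ketone bodies with a proton. It measured 10.52, 10.88, 10.56 and 10.45 in untreated colitis and 11.28, 11.34, 11.38 and 11.46 in untreated healthy mice, without overlap, a change of -0.76 ± 0.10, adjusted p = 5.12e-05. Slc5a8 (SMCT1), the sodium-coupled butyrate carrier of the apical membrane, measured 10.63, 11.37, 11.00 and 11.01 in untreated colitis and 11.46, 11.76, 11.65 and 11.71 in untreated healthy mice. Mouse 6 was the highest and mouse 5 the lowest of its colitis arrays, all 4 of which were below the healthy ones, and the change was -0.65 ± 0.14, adjusted p = 0.00187. Also lower were the creatine carrier Slc16a12 (-1.12 ± 0.20, adjusted p = 0.000395), Slc16a5 (-0.86 ± 0.18, adjusted p = 0.00168), the carnitine carrier Slc16a9 (-0.67 ± 0.12, adjusted p = 0.000399), Slc16a13 (-0.57) and the aromatic amino acid carrier Slc16a10 (-0.50). A second, dimmer probe set of Slc16a5 also fell (-0.67 ± 0.13), whereas a second probe set of Slc16a9, whose mean was under the filter level, changed by -0.28 ± 0.11 and did not pass.

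Slc16a3 (MCT4), the lactate exporter of glycolytic cells, moved the other way. Its levels were 7.60, 7.27, 7.60 and 7.21 in untreated colitis and 7.05, 6.94, 6.79 and 6.83 in untreated healthy mice. The lowest colitis array was above the highest healthy one, and the gene rose by 0.52 ± 0.15 (adjusted p = 0.0187). It no longer passed once mouse 6 of the healthy group, or mouse 5 or 7 of the colitis group, was left out (adjusted p between 0.0514 and 0.0599). Slc16a6, known in zebrafish liver as an exporter of ketone bodies, rose by 0.58 ± 0.15 (adjusted p = 0.00675), with overlapping groups. The vitamin carrier Slc5a6, which imports biotin and pantothenate, fell (-0.67 ± 0.11, adjusted p = 0.000241), and so did the choline carrier of cholinergic neurons, Slc5a7 (-0.47 ± 0.11, adjusted p = 0.00392).

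Of the 4 tested peptide carriers 1 fell and 2 rose, against 14.4% and 11.7% of all genes. Slc15a1 (PEPT1) takes up dipeptides and tripeptides with protons at the apical membrane. Its levels were 10.04, 10.37, 10.04 and 10.32 in untreated colitis and 11.31, 11.40, 11.61 and 11.47 in untreated healthy mice. The groups were separated by nearly 1 log2 unit, and the gene fell by 2.38-fold (-1.25 ± 0.16, adjusted p = 1.99e-05). Slc15a3 and Slc15a4 are carriers of histidine and peptides in the endolysosomes of immune cells. Slc15a3 was 6.69, 5.95, 7.11 and 6.52 in untreated colitis and 5.16, 5.01, 5.06 and 5.40 in untreated healthy mice, again without overlap, and rose (1.41 ± 0.25, adjusted p = 0.000473). Its mean in healthy colon was under the filter level, so background may compress the rise, which was not tested. Slc15a4 rose by 0.27 ± 0.08 (adjusted p = 0.0142). Slc15a2 (PEPT2), the remaining tested member, named after its values were seen, changed by 0.44 ± 0.31 and did not pass (adjusted p = 0.323).

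The amino acid carriers of the families Slc1, Slc3, Slc7, Slc36, Slc38 and Slc43 gave 7 rises and 6 falls among 38 tested genes, 18.4% and 15.8%, the falls near the 14.4% of all genes and the rises above the 11.7%. Slc7a11 (xCT), which rose, imports cystine in exchange for glutamate. Its values were 6.91, 6.21, 8.25 and 6.85 in untreated colitis and 5.41, 5.20, 5.16 and 5.16 in untreated healthy mice. Mouse 7 was the highest and mouse 6 the lowest of the colitis arrays, and every colitis array exceeded every healthy one. The change was 1.82 ± 0.35 (adjusted p = 0.000946). The healthy mean lay under the filter level, which the gene passed on 13 arrays, 2 of them healthy, so no fold is given. A second Slc7a11 probe set, far dimmer, changed by 0.30 ± 0.19 and did not pass.

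Slc7a9 forms with Slc3a1 the exchanger that absorbs cystine and basic amino acids. It measured 8.20, 7.57, 7.22 and 7.33 in untreated colitis and 6.29, 6.17, 6.35 and 6.44 in untreated healthy mice, with mouse 5 highest in colitis and no overlap (1.26 ± 0.16, adjusted p = 2.92e-05). Its partner Slc3a1 rose by 0.54 ± 0.14 (adjusted p = 0.00765), with overlapping groups of 6.78, 7.22, 6.59 and 6.45 in untreated colitis and 6.55, 6.12, 5.99 and 6.21 in untreated healthy mice. The call was lost in a fit of these groups alone (adjusted p = 0.0533). The other heavy chain, Slc3a2, which serves the remaining exchangers, changed by 0.07 ± 0.09, adjusted p = 0.599. Of its partners, Slc7a5 (LAT1), the importer of large neutral amino acids of dividing cells, rose by 0.58 ± 0.19 (adjusted p = 0.0287). Its values were 7.97, 7.15, 7.94 and 7.54 in untreated colitis and 7.57, 7.06, 6.81 and 6.86 in untreated healthy mice. The groups overlapped, and the gene no longer passed once mouse 4, 6 or 7 of the healthy group, or mouse 5 or 7 of the colitis group, was left out (adjusted p up to 0.0972 over its alternatives).

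Slc7a6 (y+LAT2) rose by 0.55 ± 0.12 (adjusted p = 0.0022). Slc7a8 (LAT2), the basolateral exit route of epithelia for neutral amino acids, fell by 2.11-fold. Its arrays read 8.40, 7.92, 7.96 and 8.30 in untreated colitis and 9.32, 9.22, 9.18 and 9.16 in untreated healthy mice, a wide gap (-1.08 ± 0.13, adjusted p = 1.24e-05). The arginine carrier Slc7a2 changed by 0.02 ± 0.16, adjusted p = 0.953.

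Among the ion-driven importers of amino acids, Slc1a1 (EAAT3, glutamate and cysteine) read 8.27, 8.55, 8.61 and 8.66 in untreated colitis and 9.38, 9.53, 9.59 and 9.36 in untreated healthy mice and fell (-0.94 ± 0.12, adjusted p = 3.09e-05). Slc36a1 (PAT1), the proton-driven importer of glycine, proline and alanine, read 9.26, 9.21, 9.13 and 9.64 in untreated colitis and 10.60, 10.23, 10.44 and 10.29 in untreated healthy mice and fell (-1.08 ± 0.16, adjusted p = 0.000104). Neither gene had overlapping groups. The glutamine exchanger Slc1a5 (ASCT2) fell (-0.40 ± 0.05, adjusted p = 5.02e-05), a small change with little spread, with 9.84 ± 0.06 in untreated colitis and 10.24 ± 0.04 in untreated healthy mice (SD, n = 4 each). Slc38a11 was lower (-0.63). Slc38a2 (SNAT2), which responds to amino acid shortage, rose by 0.34 ± 0.07 (adjusted p = 0.00101), and the lysosomal arginine sensor Slc38a9 rose by 0.40 ± 0.10 (adjusted p = 0.00518).

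In the Slc6 family of sodium- and chloride-driven carriers 6 of 15 genes fell and 1 rose. Of all genes 14.4% fell and 11.7% rose, so the Slc6 rises (6.67%) were below the share of all genes. Slc6a4, the serotonin carrier, which in the gut clears serotonin released by enterochromaffin cells, read 7.25, 7.51, 7.46 and 7.50 in untreated colitis and 9.16, 8.87, 9.14 and 9.11 in untreated healthy mice. The groups were more than 1 log2 unit apart, and the fall was 3.12-fold (-1.64 ± 0.17, adjusted p = 2.83e-06). Slc6a14, the broad importer of neutral and basic amino acids of the colon, read 11.74, 12.28, 12.05 and 11.90 in untreated colitis and 12.39, 12.61, 12.54 and 12.58 in untreated healthy mice and fell (-0.54 ± 0.15, adjusted p = 0.0123). The creatine carrier Slc6a8 fell (-0.34 ± 0.09, adjusted p = 0.00676), as did Slc6a19, the neutral amino acid importer known from the small intestine (-0.25), Slc6a17 (-0.36) and the betaine carrier Slc6a12 (-0.24). The taurine carrier Slc6a6 rose by 0.32 ± 0.10 (adjusted p = 0.02), though not once mouse 5 of the colitis group was left out (adjusted p = 0.0557).

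**Figure D2:**
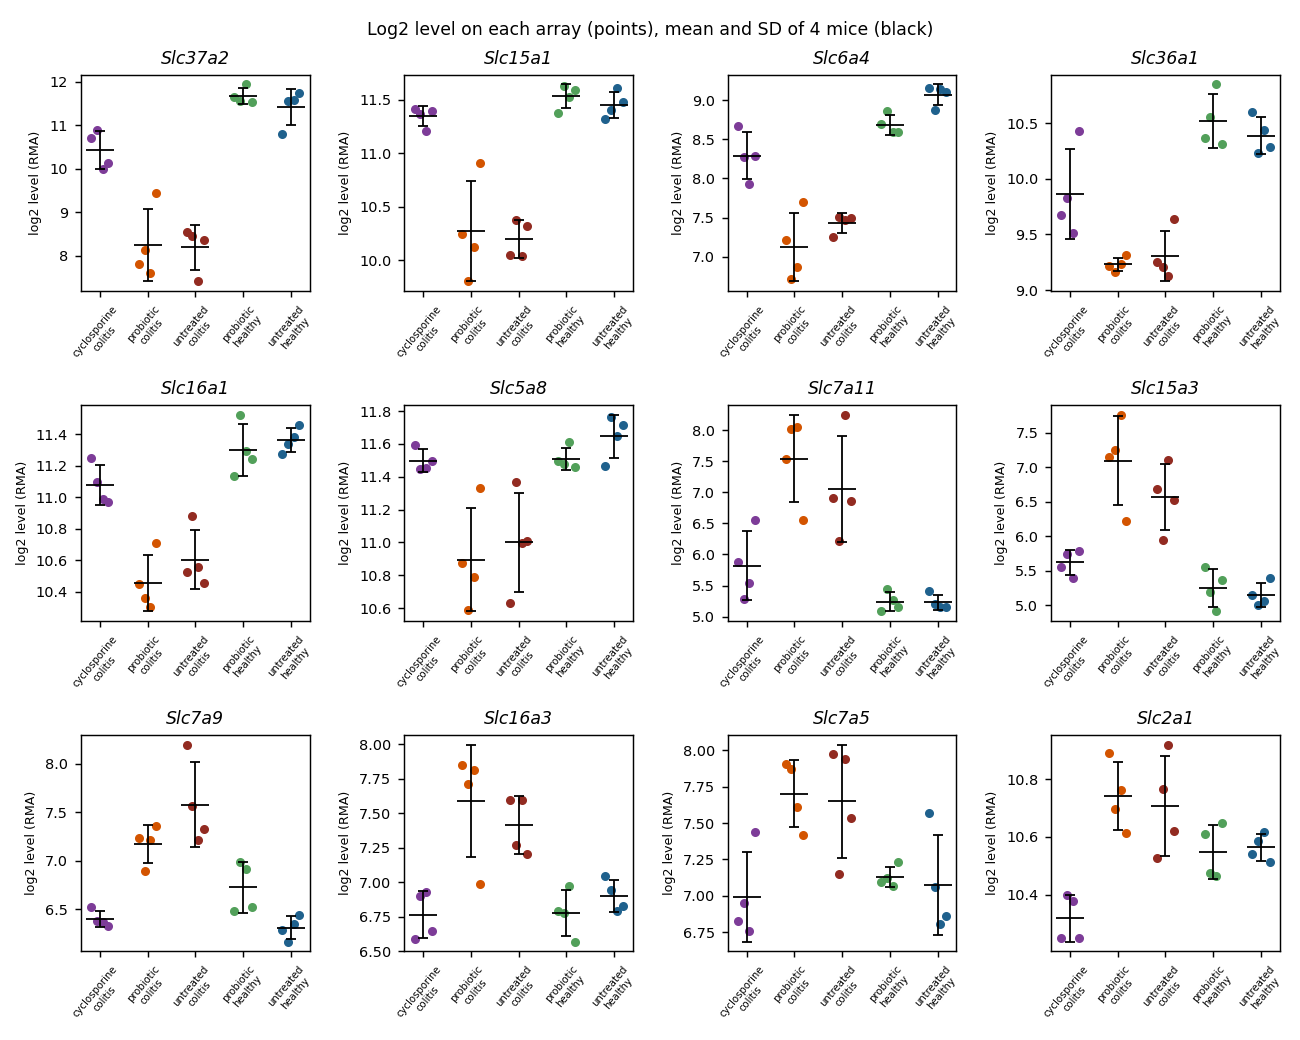
Log2 level of 12 carriers on each of the 20 arrays (coloured points), with the mean and SD of the 4 mice of each group in black and each panel on its own scale. For Slc37a2, Slc15a1, Slc6a4 and Slc16a1 all 8 arrays of untreated and probiotic colitis lie below all 8 healthy arrays. The mean of cyclosporine colitis lies between those of the other colitis groups and those of the healthy groups for these 4 genes.

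Genes that act with these carriers were counted in the same comparison, in which 11.7% of all genes rose and 14.4% fell. Of 8 tested genes of butyrate and ketone use, 7 fell and none rose, led by Acss2 (-0.95 ± 0.13), Hadh (-0.54 ± 0.10) and Acads (-0.57 ± 0.12). Of 20 tested genes of the ATF4 response 6 rose, among them the one-carbon enzyme Mthfd2 (0.80 ± 0.14), the serine enzyme Psat1 (0.60 ± 0.14) and asparagine synthetase Asns (0.64 ± 0.17), and 1 fell. Of 15 genes of glycolysis and lactate 2 rose, including the glycolytic regulator Pfkfb3 (1.07 ± 0.30), and 3 fell. The mTORC1 nutrient sensing list gave 2 rises among 23 genes, and the glutamine and glutamate list 1 rise and 5 falls among 9. The rises of the glycolysis list are near the share of all genes and those of the mTORC1 list below it. Among 6 partner proteins and monocarboxylate receptors, embigin Emb, an MCT chaperone, rose (1.62 ± 0.30), as did the short-chain fatty acid receptor Ffar2 (0.66 ± 0.12). The MCT chaperone basigin, Bsg, fell by little (-0.16 ± 0.06), as did the scaffold Slc9a3r1 (-0.41 ± 0.07).

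Markers of cell types moved with the carriers. Of the colonocyte list 7 of 17 tested genes fell and 1 rose, with mean log2 levels of 11.49 to 11.69 in untreated colitis and 11.96 to 12.07 in untreated healthy mice. Neutrophil markers rose in 8 of 11 genes (6.57 to 9.67 in untreated colitis, 5.81 to 6.05 in untreated healthy mice), macrophage markers in 9 of 14 (7.82 to 9.03 in untreated colitis, 7.58 to 7.68 in untreated healthy mice), T cell markers in 8 of 9 and B and plasma cell markers in 6 of 9. Goblet cell markers rose in 6 of 11. Smooth muscle markers fell in 12 of 14 (9.50 to 9.85 in untreated colitis, 10.21 to 10.34 in untreated healthy mice), and Hox genes of the hindgut, markers of the place sampled, fell in 5 of 8. The part of each of these in the carrier changes was not tested.

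**Figure D3:**
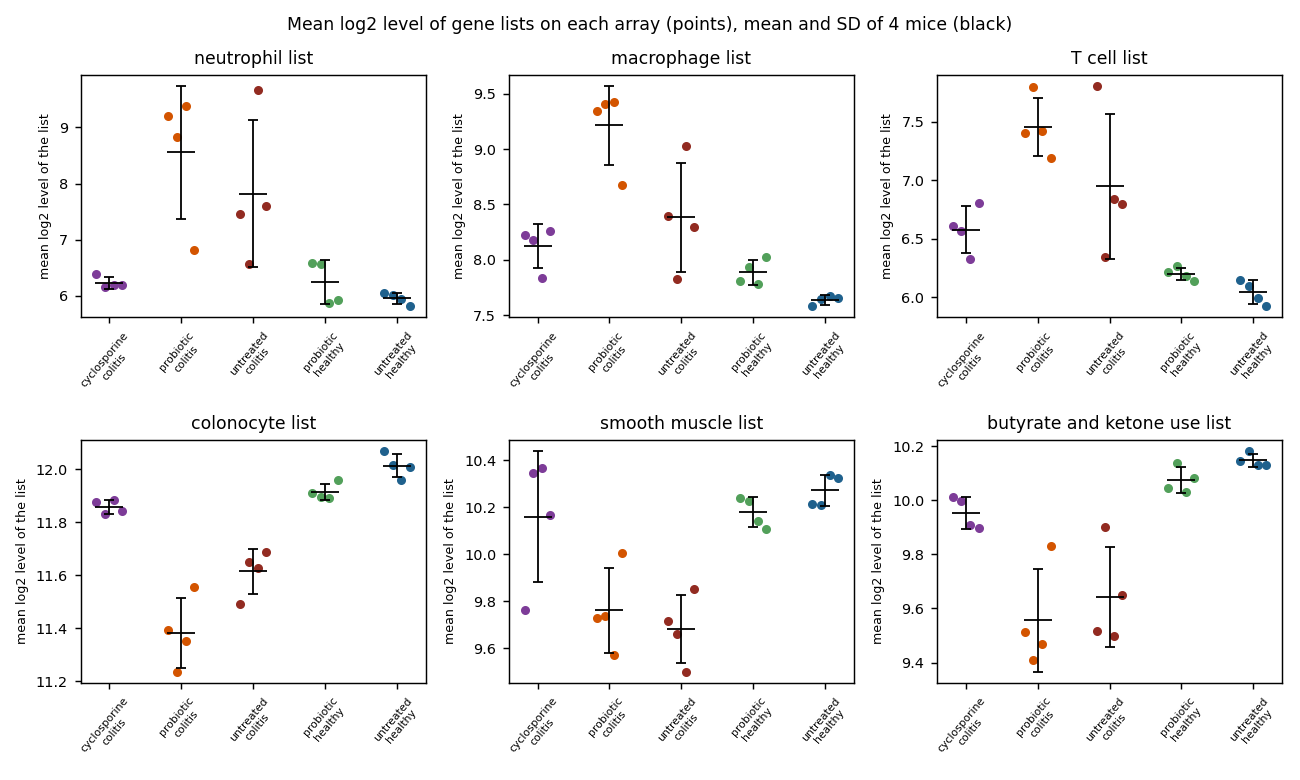
Mean log2 level of 5 cell type marker lists and of the butyrate and ketone list on each array (coloured points), with mean and SD of 4 mice in black. In untreated colitis the neutrophil list spans 6.57 to 9.67, while in cyclosporine colitis it spans 6.17 to 6.39. The colonocyte list is highest in the healthy groups.

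The probiotic without DSS left the carriers without a call. In probiotic healthy against untreated healthy colon 0 of 93 carriers and 0.00% of all genes passed limma's test. At an unadjusted p under 0.05 there were 10 carriers and 1511 of all genes, and the smallest adjusted p of a carrier was 0.371, for Slc7a8. Slc7a8 measured 9.56, 9.80, 9.86 and 9.38 in probiotic healthy and 9.32, 9.22, 9.18 and 9.16 in untreated healthy mice, all 4 probiotic arrays above the others (0.43 ± 0.13). Slc38a2 (0.19 ± 0.07) and Slc38a4 (0.26 ± 0.09), both sodium-coupled neutral amino acid carriers, came next. Each alternative setting and each left-out array also gave 0 carriers.

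In mice on the probiotic, DSS was again followed by more falls than rises. Of 93 carriers 29 fell and 14 rose in probiotic colitis against probiotic healthy colon, against 16.1% and 13.6% of all genes. No array of this comparison belongs to the comparison of untreated mice. Both came from the same fit and share each gene's estimate of spread, so their calls are not independent. The falls had 24 genes in common, 85.7% of the 28 in untreated and 82.8% of the 29 in probiotic mice. The rises had 10 in common, 76.9% of the 13 in untreated and 71.4% of the 14 in probiotic mice, and no carrier was called in opposite directions. Such overlap was not counted over all genes, so it cannot be taken as particular to the carriers. Slc37a2 fell again, at 7.81, 8.14, 7.61 and 9.44 in probiotic colitis and 11.65, 11.56, 11.94 and 11.53 in probiotic healthy mice (-3.42 ± 0.33, adjusted p = 1.03e-06). Mouse 8, one of the arrays that stood apart, was the least changed. Markers of cell types moved in this comparison too. Colonocyte markers fell in 9 of 17 genes and rose in 2 (11.24 to 11.55 in probiotic colitis, 11.89 to 11.96 in probiotic healthy mice), smooth muscle markers fell in 10 of 14 and hindgut Hox genes in 7 of 8. Macrophage markers rose in 12 of 14 (8.67 to 9.42 in probiotic colitis, 7.78 to 8.02 in probiotic healthy mice), neutrophil markers in 10 of 11, T cell markers in 9 of 9 and B and plasma cell markers in 9 of 9. Their part in the carrier changes was not tested.

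Slc36a1 changed by -1.29 ± 0.16, Slc15a1 by -1.26 ± 0.16, Slc6a4 by -1.56 ± 0.17, Slc1a1 by -1.13 ± 0.12 and Slc16a1 by -0.85 ± 0.10, all of them falls that passed. Slc7a11 rose, with 7.54, 8.02, 8.06 and 6.55 in probiotic colitis and 5.09, 5.44, 5.26 and 5.16 in probiotic healthy mice (2.30 ± 0.35, adjusted p = 7.18e-05), and Slc15a3 rose by 1.84 ± 0.25 (adjusted p = 2.34e-05). Called here and not in untreated mice were the macrophage hexose carrier Slc2a6 (0.92 ± 0.16), Slc2a3 (0.80 ± 0.19), the glycine and proline carrier Slc36a2 (0.54 ± 0.14) and the neutral amino acid carrier Slc43a2 (0.45 ± 0.09). Their changes in untreated mice were 0.42 ± 0.16, 0.43 ± 0.19, 0.08 ± 0.14 and 0.23 ± 0.09 in the same order, none past the threshold, and the interaction test of the difference between the 2 changes did not pass for any of them. Slc7a9 rose by 0.45 ± 0.16 here (adjusted p = 0.0439), with 7.24, 6.90, 7.22 and 7.36 in probiotic colitis and 6.48, 6.99, 6.91 and 6.53 in probiotic healthy mice.

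**Figure D4:**
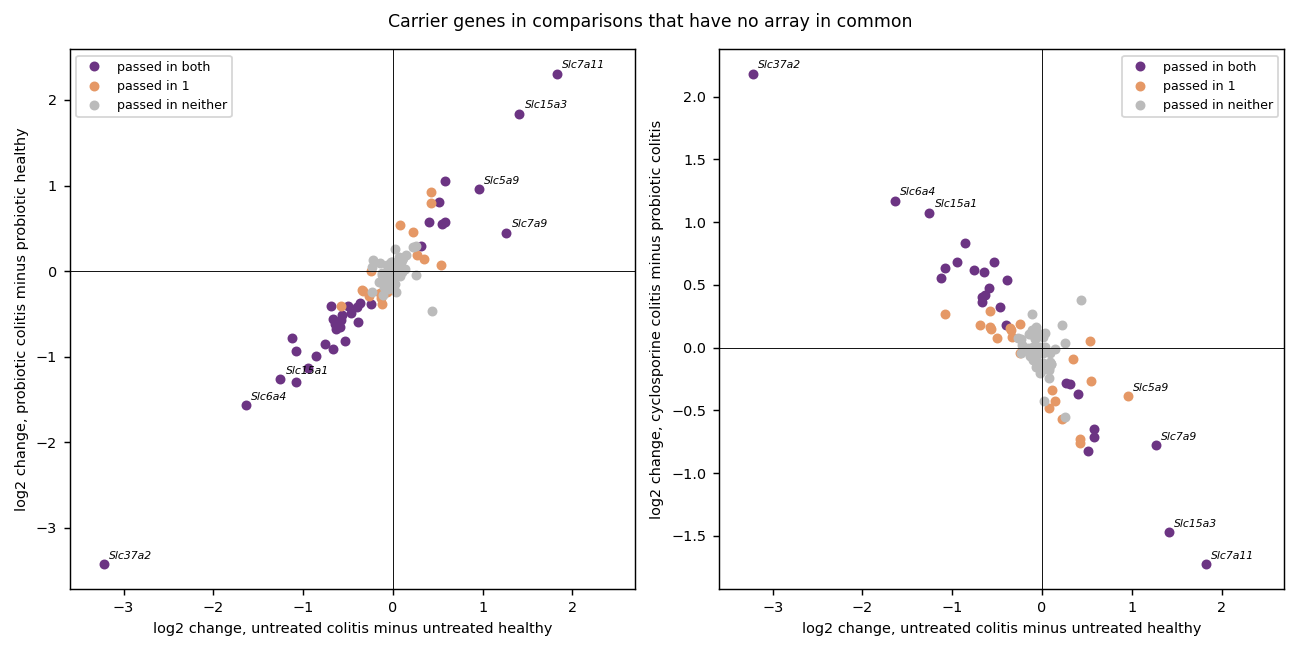
Log2 changes of the 93 tested carriers in pairs of comparisons that have no array in common. The horizontal axis is untreated colitis minus untreated healthy in both panels. The vertical axis is probiotic colitis minus probiotic healthy on the left, where 34 purple points passed in both comparisons with the same sign. On the right it is cyclosporine colitis minus probiotic colitis, where 26 purple points passed in both with opposite signs. Named points are Slc37a2, Slc6a4, Slc15a1, Slc5a9, Slc7a9, Slc15a3 and Slc7a11.

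Whether the effect of the probiotic differed between colitis and healthy colon was tested as an interaction. At an unadjusted p under 0.05 (limma) there were 8 of 93 carriers and 1446 of 16739 genes. No carrier passed after adjustment (smallest adjusted p 0.367), and 0.00% of all genes did. That smallest value belonged to Slc7a9 (-0.81 ± 0.23). With array weights 5 genes of all were called, and without the 3 arrays that stood apart 18 were, none of them a carrier. For Slc7a8, whose arrays were higher with the probiotic in both states, the interaction was 0.15 ± 0.18, adjusted p = 0.854.

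Probiotic colitis differed from untreated colitis in 2 carriers, against 2.13% of all genes higher and 0.669% lower. Slc7a8 rose, with 8.72, 8.71, 8.71 and 8.77 in probiotic colitis and 8.40, 7.92, 7.96 and 8.30 in untreated colitis (0.58 ± 0.13, adjusted p = 0.0215). Slc1a4 (ASCT1), an exchanger of alanine, serine and cysteine, fell, with 7.09, 7.04, 7.03 and 6.76 in probiotic colitis and 7.33, 7.52, 7.48 and 7.43 in untreated colitis (-0.46 ± 0.11, adjusted p = 0.0286). Neither gene had overlapping groups. Both calls were lost without untreated colitis mouse 6, probiotic colitis mouse 5 or 7, or the 3 arrays that stood apart. Slc7a8 also lost its call without probiotic colitis mouse 3, and Slc1a4 without untreated colitis mouse 10 (adjusted p up to 0.134 for both genes). Leaving out probiotic colitis mouse 8 gave 8 higher and 4 lower carriers in place of 1 and 1. The matching count over all genes was not made, so this difference cannot be taken as particular to the carriers. Macrophage markers rose in 10 of 14 genes in the same comparison (8.67 to 9.42 in probiotic colitis, 7.82 to 9.03 in untreated colitis), and 2 of 17 colonocyte markers fell. Their part in the carrier calls was not tested.

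Cyclosporine colitis differed from untreated colitis in 28 carriers, 16 higher and 12 lower, against 7.58% and 5.58% of all genes. This comparison shares its untreated colitis arrays with that of untreated colitis against healthy colon, so the changes in both are given side by side without a count of agreement. Slc37a2 rose by 4.7-fold, with 10.71, 10.89, 9.99 and 10.13 in cyclosporine colitis and 8.55, 8.45, 7.42 and 8.37 in untreated colitis (2.23 ± 0.33, adjusted p = 0.000303, beside -3.22 for untreated colitis against healthy). The lowest cyclosporine array was above the highest untreated one by more than 1 log2 unit. Slc15a1 rose by 2.22-fold, with 11.42, 11.37, 11.21 and 11.39 in cyclosporine colitis and 10.04, 10.37, 10.04 and 10.32 in untreated colitis (1.15 ± 0.16, adjusted p = 0.000166, beside -1.25). Its 4 cyclosporine arrays were closely grouped.

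Slc6a4 was 8.68, 8.28, 7.93 and 8.29 in cyclosporine colitis, above all untreated colitis arrays (0.86 ± 0.17, adjusted p = 0.00247, beside -1.64). Slc7a8 was 9.04, 9.27, 8.64 and 9.02 in cyclosporine colitis (0.85 ± 0.13, adjusted p = 0.000317, beside -1.08), also without overlap. Slc16a1 was 11.25, 11.10, 10.99 and 10.97 in cyclosporine colitis, the lowest of these above the highest untreated colitis array (0.47 ± 0.10, adjusted p = 0.00632, beside -0.76). Of the monocarboxylate family 6 of 12 genes rose and 2 fell, against 7.58% and 5.58% of all genes. The rises included Slc16a12 (0.75 ± 0.20), Slc16a5 (0.61 ± 0.18), Slc16a9 (0.36 ± 0.12) and Slc16a7 (0.36 ± 0.11), the pyruvate and lactate carrier MCT2. The second probe set of Slc16a5 (0.27 ± 0.13) and that of Slc16a9 (0.00 ± 0.11) did not pass here, and with the mean of its probe sets Slc16a5 lost its call. The adjusted p of Slc16a9 over all genes was 0.0498. The sodium-coupled butyrate carrier Slc5a8 rose by 0.50 ± 0.14 (adjusted p = 0.0217), with 11.60, 11.45, 11.45 and 11.50 in cyclosporine colitis. Slc36a1 rose by 0.56 ± 0.16, Slc1a1 by 0.39 ± 0.12, Slc38a11 by 0.47 ± 0.12 and Slc5a7 by 0.38 ± 0.11.

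The carriers that were lower under cyclosporine included those of cystine and lactate. Slc7a9 was 6.52, 6.38, 6.37 and 6.33 in cyclosporine colitis and 8.20, 7.57, 7.22 and 7.33 in untreated colitis, without overlap (-1.18 ± 0.16, adjusted p = 0.000219, beside 1.26). Slc7a11 was 5.88, 5.29, 5.54 and 6.56 in cyclosporine colitis and 6.91, 6.21, 8.25 and 6.85 in untreated colitis. The groups overlapped, mouse 10 being the highest with cyclosporine (-1.24 ± 0.35, adjusted p = 0.0263, beside 1.82). The second, far dimmer probe set of Slc7a11 changed by -0.45 ± 0.19 and did not pass. Slc15a3 fell by 1.92-fold (-0.94 ± 0.25, adjusted p = 0.0181) and was 5.56, 5.74, 5.40 and 5.79 in cyclosporine colitis, below every untreated colitis array.

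Slc16a3, the lactate exporter, was 6.59, 6.90, 6.93 and 6.64 in cyclosporine colitis, also below every untreated colitis array (-0.65 ± 0.15, adjusted p = 0.00922, beside 0.52). Slc2a1, which had not passed in untreated colitis, was 10.25, 10.40, 10.38 and 10.25 in cyclosporine colitis and 10.53, 10.77, 10.92 and 10.62 in untreated colitis. Its groups did not overlap, and it fell by little (-0.39 ± 0.08, adjusted p = 0.00402). Its second probe set changed by -0.18 ± 0.09 and did not pass. Slc7a5 (-0.66 ± 0.19), Slc7a6 (-0.49 ± 0.12), Slc1a4 (-0.42 ± 0.11), Slc16a11 (-0.32 ± 0.08), Slc38a10 (-0.31 ± 0.07), the glycine carrier Slc6a5 (-0.30 ± 0.09) and Slc15a4 (-0.27 ± 0.08) were also lower. The second, dimmer probe set of Slc38a10 changed by only -0.03 ± 0.08 and did not pass.

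Of the 24 named calls of this comparison, those of Slc37a2, Slc15a1, Slc6a4, Slc7a8, Slc38a11, Slc16a1, Slc7a9, Slc16a3, Slc7a6, Slc1a4 and Slc2a1 were kept in each alternative and with each array left out. Without untreated colitis mouse 7 the calls of Slc16a12, Slc36a1, Slc1a1, Slc5a7, Slc7a11, Slc15a3, Slc7a5 and Slc15a4 were lost. Without cyclosporine colitis mouse 7 those of Slc16a12, Slc16a5, Slc36a1, Slc1a1, Slc5a7, Slc7a11, Slc7a5, Slc16a11, Slc15a4 and Slc6a5 were lost, and the counts fell to 7 higher and 7 lower. Without untreated colitis mouse 7 there were 10 higher carriers. Without untreated colitis mouse 5 those of Slc16a5, Slc36a1, Slc1a1, Slc7a5, Slc6a5 and Slc5a8 were lost, without mouse 6 those of Slc16a5, Slc36a1, Slc1a1, Slc15a4 and Slc6a5, and without mouse 10 those of Slc5a7 and Slc6a5. Without cyclosporine colitis mouse 4 those of Slc16a12, Slc16a5, Slc1a1, Slc7a11, Slc7a5 and Slc5a8 were lost. Without mouse 9 of that group Slc5a7, Slc7a11, Slc7a5, Slc15a3, Slc15a4 and Slc6a5 lost theirs, and without mouse 10 Slc36a1, Slc1a1, Slc5a7 and Slc6a5 did. The adjusted p of lost calls lay between 0.0504 and 0.194. With the 3 arrays that stood apart removed, 15 were higher and 16 lower, and over all genes 3085 were called in place of 2202.

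**Figure D5:**
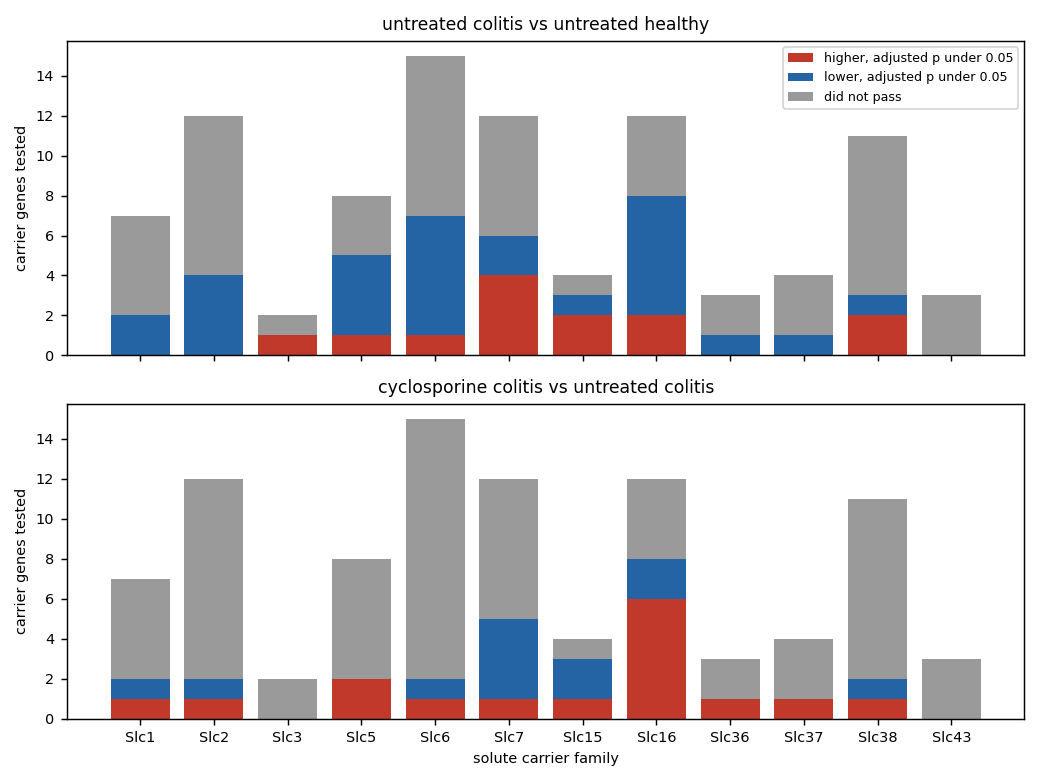
Number of tested carriers in each family that were higher (red), lower (blue) or did not pass (grey) at an adjusted p under 0.05, in untreated colitis against untreated healthy colon (top) and cyclosporine colitis against untreated colitis (bottom). The Slc16 family has 6 lower and 2 higher genes in the top panel, and 6 higher and 2 lower genes in the bottom panel.

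The pathway and marker lists in the same comparison, in which 7.58% of all genes rose and 5.58% fell, had values as follows. Of the butyrate and ketone genes 4 of 8 rose under cyclosporine, among them Acss2 (0.51 ± 0.13) and Hadh (0.33 ± 0.10), and none fell. Of the ATF4 list 6 of 20 fell, among them Mthfd2 (-0.70 ± 0.14), Psat1 (-0.61 ± 0.14) and Asns (-0.69 ± 0.17), and none rose. Colonocyte markers rose in 7 of 17 genes and fell in 1 (11.83 to 11.88 in cyclosporine colitis, 11.49 to 11.69 in untreated colitis). Smooth muscle markers rose in 11 of 14 genes, hindgut Hox genes in 4 of 8, and goblet cell markers fell in 5 of 11. Neutrophil markers fell in 3 of 11 genes (6.17 to 6.39 in cyclosporine colitis, 6.57 to 9.67 in untreated colitis). Macrophage markers fell in 1 of 14, near the share of all genes. T cell markers fell in 1 of 9 genes and B and plasma cell markers in 2 of 9, and none of either list rose. The part of these shifts in the carrier changes was not tested.

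Set against untreated healthy colon, cyclosporine colitis had 1 carrier higher and 6 lower, against 2.64% and 3.38% of all genes. Slc6a4 was lower, at 8.68, 8.28, 7.93 and 8.29 in cyclosporine colitis and 9.16, 8.87, 9.14 and 9.11 in untreated healthy mice (-0.78 ± 0.17, adjusted p = 0.0135). Slc1a1 (-0.55 ± 0.12, adjusted p = 0.0147), Slc5a6 (-0.54 ± 0.11, adjusted p = 0.0103) and Slc1a5 (-0.37 ± 0.05, adjusted p = 0.00207) were lower too, each without overlap, with Slc16a11 (-0.45) and Slc16a13 (-0.39). Slc1a5 differed from untreated colitis by 0.03 ± 0.05 (adjusted p = 0.768). The higher one was Slc38a2 (0.24 ± 0.07, adjusted p = 0.0409), a call lost without any 1 of untreated healthy mice 2, 6 and 7 or cyclosporine colitis mice 4, 7 and 10 (adjusted p between 0.0514 and 0.121). Slc37a2 was -0.99 ± 0.33 and did not pass (adjusted p = 0.076), its groups overlapping at cyclosporine colitis mouse 7 and untreated healthy mouse 2. Slc16a1 was -0.29 ± 0.10 (adjusted p = 0.1) and Slc15a1 -0.10 ± 0.16 (adjusted p = 0.725). A p above the threshold does not show that these levels were equal. In the same comparison macrophage markers were higher in 3 of 14 genes, T cell markers in 3 of 9 and endothelial markers in 2 of 12, and colonocyte markers were lower in 2 of 17 (11.83 to 11.88 in cyclosporine colitis, 11.96 to 12.07 in untreated healthy mice). Their part in the carrier calls was not tested.

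Between the treatments, cyclosporine colitis had 17 carriers higher and 15 lower than probiotic colitis, against 11.3% and 12.0% of all genes. This comparison has no array in common with that of untreated colitis against untreated healthy colon. The fit and each gene's estimate of spread are shared, however, so the calls of the 2 comparisons are not independent. All 17 higher carriers (100% of them, and 60.7% of the 28) had fallen in untreated colitis, 9 of the 15 lower carriers (60%, and 69.2% of the 13) had risen there, and 0 were called in the same direction in both. The matching count over all genes was not made, so this pattern cannot be taken as particular to the carriers. Slc37a2 was 2.18 ± 0.33 higher, Slc6a4 1.17 ± 0.17, Slc15a1 1.07 ± 0.16 and Slc16a5 0.83 ± 0.18. The amino acid importers Slc6a14 (0.68 ± 0.15, adjusted p = 0.00301) and Slc1a1 (0.68 ± 0.12, adjusted p = 0.000712) and the glucose importer Slc5a1 (0.47 ± 0.14, adjusted p = 0.0181) were higher as well. The call of Slc5a1 was lost without probiotic colitis mouse 5 or 7 or cyclosporine colitis mouse 9 (adjusted p up to 0.177 over its alternatives).

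Lower under cyclosporine than under the probiotic were Slc7a11 (-1.72 ± 0.35, adjusted p = 0.00181), Slc15a3 (-1.47 ± 0.25, adjusted p = 0.000489) and Slc16a3 (-0.82 ± 0.15, adjusted p = 0.000946). So were Slc7a9 (-0.78), Slc2a3 (-0.76), Slc2a6 (-0.72), Slc7a5 (-0.71), Slc43a2 (-0.57) and Slc2a1 (-0.42). Macrophage markers were lower in 11 of 14 genes (7.83 to 8.26 in cyclosporine colitis, 8.67 to 9.42 in probiotic colitis), neutrophil markers in 10 of 11 and T cell markers in 9 of 9. Colonocyte markers were higher in 8 of 17 (11.83 to 11.88 in cyclosporine colitis, 11.24 to 11.55 in probiotic colitis). Their part in these carrier differences was not tested.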

How the data were processed

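The authors deposited log2 expression values per probe set, normalised with RMA per the submitters' processing notes; the version of RMA is not given in the sources used here. The log2 scale was read from RMA and from the range of the values, since no scanner files were used. Of 41801 probe sets 29195 had a value on each of the 20 arrays, and 12606 had none. GEO's platform annotation gave 1 symbol for 22360 of them, several for 1013 and none for 5822. Probe sets with several symbols (4 of them with a carrier: Slc5a10, Slc16a3, Slc5a3 and Slc6a9) and 8 carrier-like symbols outside the naming pattern were left out. All 109 carrier probe sets matched RefSeq (GRCm38.p6) by gene identifier with 0 symbols differing. Where a gene had several probe sets (7 carriers), the one with the highest mean stood for it.

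Values were used as deposited. Genes above 5.30 on at least 4 arrays (16739) were fitted in R 4.3.3 with limma 3.58.1, as 5 group means over all 20 arrays moderated by eBayes (residual degrees of freedom 15, prior 4.03), from which 8 comparisons were taken with Benjamini-Hochberg adjustment in each. The errors beside changes are standard errors of the fit. The series states biological replicates, so arrays are separate mice. Mouse numbers were taken to name mice within a group and not to pair them across groups. Deviations from group means correlated at a median of 0.02 for the 20 same-number pairs (-0.185 to 0.433). For the 140 others the median was -0.01 (-0.454 to 0.507). Whether mice with the same number shared handling was not tested. Mice were kept 5 to a cage per the labels, but which mice shared one was not analysed here. The fit was tested on simulated data.

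The members, the lists, the naming rule and the alternatives were chosen with earlier results of these data known. Carriers could be named where they passed in a comparison (up to the 12 largest changes in each direction, or the 3 with the smallest p where none passed), together with 23 textbook carriers, and up to 4 genes of each list. Adipocyte and endothelial markers and brush border hydrolases were also counted. The alternatives concerned the filter (none, or the 50th percentile, 6.60), the scaling (quantiles again, or centring on medians), the fit (a robust eBayes with trend, weights for arrays, the mouse number as a block, or the compared groups alone), the mean of a gene's probe sets, and each array left out. Leaving out the 3 arrays that stood apart was chosen after seeing the data.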

Additional observations from a re-analysis of the deposited data

Results flagged for a closer look

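In 11 of 225 groups of 4 arrays, taken over 45 named carriers, 1 array lay far from the other 3 by Dixon's test. Chance gives about 1 in 20 such groups. Probiotic colitis mouse 8 held 3 of them: Slc16a3 at 6.99 (the other 3 mice 7.71 to 7.85), Slc1a4 at 6.76 (7.03 to 7.09) and Slc36a2 at 6.75 (7.28 to 7.32). Cyclosporine colitis mouse 10 held 2, with Slc5a9 at 8.79 (7.21 to 7.47) and Slc16a6 at 7.58 (7.00 to 7.03). Untreated colitis mouse 7 read 7.42 for Slc37a2 (8.37 to 8.55). In probiotic healthy colon mouse 6 read 9.12 for Slc5a1 (9.28 to 9.30) and 8.07 for Slc5a6 (7.70 to 7.73), and mouse 4 read 5.73 for Slc2a5 (6.04 to 6.05). In untreated healthy colon mouse 6 read 9.55 for Slc5a1 (9.34 to 9.37), and mouse 4 read 8.87 for Slc6a4 (9.11 to 9.16). No cause of these values was tested.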

How the results depend on the processing

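Of 2145 recomputed changes of named carriers, 2003 kept their direction and their side of the threshold. Another 142 kept their direction and lost their call, and none changed direction. The 2003 include 106 of probiotic healthy against untreated healthy colon and 155 of the interaction, where no carrier had a call to lose. Of the 142, 71 came from cyclosporine against untreated colitis (358 kept) and 14 from probiotic against untreated colitis (22 kept). In cyclosporine colitis against untreated healthy colon, the 1 higher carrier became 0 with no filter, with the replicate block and with the compared groups alone, and 2 without the 3 arrays that stood apart, and the 6 lower became 1 with the block. In probiotic against untreated colitis, the 1 higher became 2 with the stricter filter, 10 with array weights, and 0 with the block and with the compared groups alone. The 1 lower became 4 with array weights and 0 with the block, with the compared groups alone and without the 3 arrays. Over all genes the 468 calls of this comparison became 1682 with array weights, 219 with the block and 0 with the compared groups alone. Without the 3 arrays they became 623. In cyclosporine against probiotic colitis the 15 lower became 9 with the replicate block, and in cyclosporine against untreated colitis the 16 higher and 12 lower became 7 and 7 with the compared groups alone. Leaving out 1 array gave 10 to 16 higher and 23 to 28 lower in untreated colitis against healthy, 11 to 17 and 24 to 28 in probiotic colitis against probiotic healthy, and 7 to 16 and 7 to 14 in cyclosporine against untreated colitis. It gave 12 to 17 and 12 to 20 in cyclosporine against probiotic colitis, 0 to 1 and 6 to 8 in cyclosporine colitis against untreated healthy, and 0 to 8 and 0 to 4 in probiotic against untreated colitis. Matching counts over all genes with 1 array left out were not made. The mouse numbers were not taken to pair mice, and the block left 14 higher and 25 lower in untreated colitis against healthy. Over all genes it took the calls of cyclosporine colitis against untreated healthy colon from 1008 to 25. Apart from the construction of each alternative, the cause was not tested. Neither scaling moved the median change of all genes by over 0.1. Slc7a11, Slc15a3, Slc2a12 and Slc16a4 each had a group mean below the level of the filter. Background may limit their changes, which was not tested. Other carriers lay little above that level, among them Slc2a2, Slc2a5 and Slc6a19, with means of 5.72, 5.78 and 5.75 over the 20 arrays.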

Other observations

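Genes of arginine and polyamine metabolism, which share substrates with the basic amino acid carriers, moved in untreated colitis against untreated healthy colon while the arginine carrier Slc7a2 did not pass. Of 14 tested genes 4 rose and 3 fell, against 11.7% and 14.4% of all genes. The inducible nitric oxide synthase Nos2 rose (3.44 ± 0.43, adjusted p = 2.42e-05), and the urea cycle enzyme Otc (-1.97 ± 0.30, adjusted p = 0.000129) and the ornithine aminotransferase Oat (-0.49 ± 0.08, adjusted p = 0.00024) fell. In cyclosporine colitis against untreated colitis, which shares arrays with that comparison, Nos2 was lower (-2.60 ± 0.43) and Otc higher (1.47 ± 0.30).

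Peptidases of the brush border, which supply the peptide and amino acid carriers, fell in 5 of 10 tested genes and rose in 2 in untreated colitis, with Mep1a at -1.23 ± 0.18, adjusted p = 7.34e-05, Anpep at -0.71 ± 0.12, adjusted p = 0.000281 and Enpep at -0.62 ± 0.14, adjusted p = 0.0032. Under cyclosporine 4 of the 10 were higher than in untreated colitis and 2 lower, against 7.58% and 5.58% of all genes, with Mep1a at 1.14 ± 0.18. Anpep also rose in probiotic against untreated colitis (0.75 ± 0.12, adjusted p = 0.00466). The small intestinal enterocyte list, which shares Anpep and Enpep, had 2 falls and no rise among 10 genes in untreated colitis, and the adipocyte list 1 fall among 9, both near the 14.4% of all genes that fell. Endothelial markers rose in 2 of 12 genes there and in 3 of 12 in probiotic against untreated colitis (against 11.7% and 2.13% of all genes), and enteric neuron and glia markers rose in 2 of 12 and fell in 4.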
